A study of Mus musculus with 8 samples.

Results

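The mitochondrial carriers and the machinery that imports proteins into mitochondria were examined in ribosome footprints of mouse liver. The genes were taken by symbol, as every line of the deposited table whose symbol starts with Slc25a, Timm or Tomm, and 44 of 7500 lines met this rule, or 0.587%. They comprised 27 Slc25a genes, 9 Timm genes and 8 Tomm genes. RefSeq lists 73 protein-coding mouse genes with such symbols, and those with no line under such a symbol, such as Slc25a3, Slc25a13 and Slc25a15, were not analysed here. The table lists 3 of them under older symbols, which the rule did not take. Mcart1, now Slc25a51, had a density of 3.03 log2 CPM per kb of coding sequence, Fxc1, now Timm10b, 7.01, and 1810026J23Rik, now Timm29, 4.40. A gene without a line need not be low in liver, since the urea cycle enzyme Cps1 had none under its symbol.

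Livers came from male wild-type FVB/N mice, fed from weaning for 6 weeks on a selenium-deficient diet to which either nothing (0 Se) or 0.1 ppm selenium as sodium selenite (0.1 Se) was added. Both groups therefore shared the deficient base diet. The labels give 4 libraries per diet, 8 libraries in all. The first part of each replicate number was read as the mouse, which gives 2 mice per diet and 2 libraries from each mouse. The paper also describes 2 mice per diet. The deposited table compares the diets only through the authors' own fold changes and p-values, which were not used here, so no difference between 0 Se and 0.1 Se is given for any gene. What it gives besides is 1 average abundance per gene and 1 coding length. The average was read as being over all 8 libraries, since its label names no sample. The values below are therefore levels of the liver over both diets together, with no SD, no value for a single mouse and no known depth, and a gene that differed between the diets would show only its average. Where levels are set in order, the order was not tested, because the spread between mice is not known.

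Ribosome profiling sequences the pieces of mRNA that ribosomes shield from nuclease, so the footprints on a coding sequence count the ribosomes at work on it. The inner mitochondrial membrane is closed to most metabolites, and carriers of the Slc25a family move nucleotides, organic acids, amino acids and cofactors across it. Almost all mitochondrial proteins, these carriers among them, are made in the cytosol and enter through the TOM complex of the outer membrane. From there, proteins with a cleavable presequence pass the TIM23 complex of the inner membrane, while carriers are escorted across the intermembrane space by small Timm chaperones. In liver these steps serve the export of citrate for lipid synthesis, the uptake of acylcarnitines for fatty acid oxidation and the nitrogen and redox shuttles.

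The tissue label was checked first. Of 8 hepatocyte markers, 6 had a line, with a median average level of 13.5 log2 CPM (footprint counts scaled to the size of the library) and Alb, serum albumin, the highest at 16.5. Markers of other liver cells were lower by median but present. Of the hepatocyte markers only Serpina1c, at 6.68 log2 CPM, was below any of them, namely Clec4f (8.09), Stab2 (7.27) and Cd5l (6.80). The 5 Kupffer cell markers with a line had a median of 6.16 log2 CPM, led by Clec4f at 8.09, the 3 endothelial markers 6.46, the 3 stellate cell markers 2.65, and the 2 biliary markers with a line 0.858. In bulk tissue, fewer cells of a type and less RNA per cell cannot be told apart, and the share of each cell type in the levels below was not tested.

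Because a longer coding sequence collects more footprints at the same ribosome spacing, genes were compared per length. Density is the average CPM divided by the counted coding length in kilobases, given as log2. The deposited length proved to be the coding sequence less 60 bases in 97.4% of the 2572 genes with a single coding length in GENCODE, so it is the stretch on which footprints were counted. All 44 genes had values. The median density was 4.86 log2 CPM per kb for the 44 genes and 3.50 for all 7500, and 33 of the 44 lay above the median of the table. A density above the table's upper quartile of 5.23 was held by 18 genes, and 5 lay below the lower quartile of 1.93. By level, without the correction for length, 26 of 44 lay above the table's median of 3.95 log2 CPM, and 15 lay above the upper quartile and 8 below the lower. Together the 44 genes took 2284 CPM, or 0.267% of the summed CPM of the table. The table as a whole summed to 857000 CPM, and genes without a line are in neither sum.

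The densities spanned 8.93 log2 units, a 487-fold range, from Slc25a5 at the top to Slc25a24 at the bottom. The authors kept genes that exceeded 1 CPM in 3 or more samples, and the low end was near that floor. Slc25a24 had 2.11 CPM, Slc25a36 1.45, Slc25a14 1.78 and Tomm40l 2.31. The span and the ratios to these genes given below depend on values near the floor. The median density was 4.27 log2 CPM per kb for the Slc25a genes, 5.29 for the Timm genes and 5.16 for the Tomm genes. All 9 Timm genes and 6 of 8 Tomm genes were above the table's median density, against 18 of 27 Slc25a genes. By level, without the correction for length, these counts were 7 of 9, 4 of 8 and 15 of 27, and the medians were close, at 4.22, 4.36 and 4.26 log2 CPM. The order of the families by density also turned with a filter on low values, since among genes of at least 3 log2 CPM the median density of the Slc25a genes, 5.90, was above that of the Timm genes, 5.31. The carriers, which were 27 of the 44 genes, held 7 of the 10 highest densities and also 4 of the 5 below the table's lower quartile. Neither count is far from that share.

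**Figure D1:**
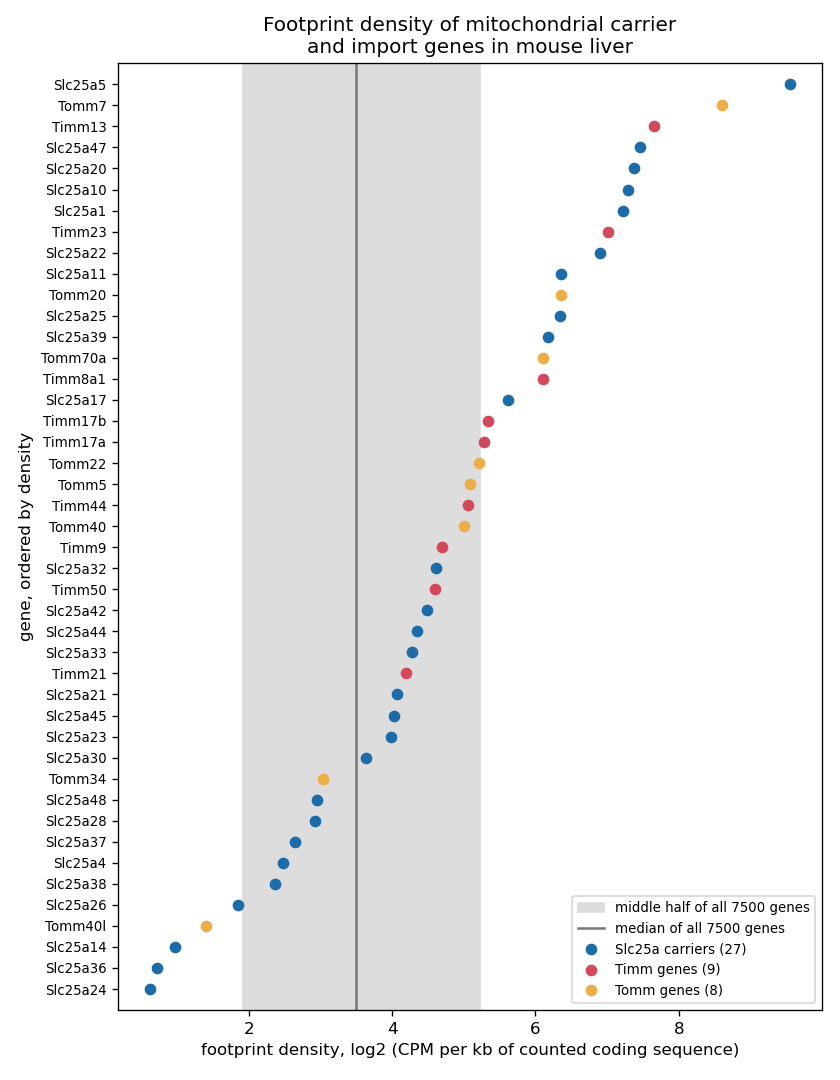
Footprint density of each of the 44 genes, as log2 CPM per kb of counted coding sequence on the horizontal axis, with genes ordered by density on the vertical axis and 1 point per gene (the average over all 8 libraries, no error known). The grey band runs between the quartiles of all 7500 genes, 1.93 to 5.23, and the line their median, 3.50. Slc25a5 stands at 9.55, and Tomm40l, Slc25a14, Slc25a36 and Slc25a24 lie at 1.41 or below.

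The adenine nucleotide carriers exchange mitochondrial ATP for cytosolic ADP, and their genes showed the widest gap of the relatives compared here. Slc25a5 (chromosome X, 34335646 to 34338802, mm9, plus strand, 4 coding exons), also known as Ant2, had 9.30 log2 CPM and a density of 9.55 log2 CPM per kb, at the 98.2th percentile of all genes. Slc25a4 (chromosome 8, 47292151 to 47296638, minus strand, 4 coding exons), the Ant1 form known from heart and muscle, had 2.23 log2 CPM and a density of 2.49. Both have a counted stretch of 837 bases, so the 134-fold ratio of their densities is also that of their levels. Slc25a5 alone held 35.5% of the summed CPM of the 27 carriers with a line, and its density was 4.28-fold that of the next of these, Slc25a47. Carriers without a line, such as Slc25a3, enter neither value, so the share is not that of all carriers in liver.

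Since footprints are short and were kept only when they aligned to 1 place with up to 2 mismatches, it matters how far such relatives can be told apart. The counted stretches of Slc25a5 and Slc25a4 were identical at 78.3% of bases and differed at 182. Their closest 30-base window, a footprint's width, differed at 2 bases and their farthest at 14. Both are shown with the bases that differ in capitals, positions being counted from the A of the start codon:

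Slc25a5, bases 82 to 111: ccCatcgagagggtcaaGctgctgctgcag

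Slc25a4, bases 82 to 111: ccGatcgagagggtcaaActgctgctgcag

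Slc25a5, bases 425 to 454: cAgcTgaTgtgggcaaAgCTGGAGcTGaAA

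Slc25a4, bases 425 to 454: cTgcCgaCgtgggcaaGgGATCTTcCCaGC

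Only 27 of 808 windows, 3.34%, came within 2 mismatches of the other gene. Per base that can be placed in a single gene, the ratio of densities was again 134.

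The closest window holds a copy of a sequence that recurs in most of the carriers. Mitochondrial carriers are built of repeats that each hold a signature of a proline, an acidic residue and a basic residue. It was searched in frame on the coding strand as a proline codon, any codon, an aspartate or glutamate codon, any 2 codons and a lysine or arginine codon. Slc25a5 held it 3 times, shown with the first 2 letters of the proline and acidic codons and the whole basic codon in capitals:

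Slc25a5, bases 82 to 99: CCcatcGAgagggtcAAG

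Slc25a5, bases 397 to 414: CCtcttGAttttgccCGT

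Slc25a5, bases 688 to 705: CCttttGAcacggttCGC

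Of the 27 carriers, 17 held it 3 times, 7 held it 2 times and 3 held it once, namely Slc25a17, Slc25a32 and Slc25a44. Over the 7093 genes of the table whose deposited length matched a GENCODE coding sequence, 3.10% held at least 3 copies, and 0 import genes did, Timm21 not being searched. A copy that differs from these letters was not counted. The carriers were also alike in length, with 24 of 27 counted stretches between 765 and 1035 bases. The 3 longer ones, of 1344 to 1446 bases, belonged to the ATP-Mg carriers described next.

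The ATP-Mg carriers exchange ATP-Mg for phosphate and carry a calcium-binding domain ahead of the carrier repeats. Slc25a25 (chromosome 2, 32270007 to 32306965, minus strand, 11 coding exons) had 6.88 log2 CPM and a density of 6.35 log2 CPM per kb. Slc25a23 had a density of 3.98, and Slc25a24 had the lowest of all 44 genes, 0.63, at 1.08 log2 CPM. The density of Slc25a25 was 5.15-fold that of Slc25a23 and 52.8-fold that of Slc25a24. These are ratios of averages over both diets and need not hold within either. At most 2.97% of their windows, in Slc25a23, came within 2 mismatches of another gene.

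Among the genes with a line, the organic acid carriers were the group with the next largest sum after the adenine nucleotide carriers, 344 CPM from 4 genes. All 4 were above the table's median density, and 3 of the 4, all but Slc25a21, above its median level. Slc25a10, which exchanges dicarboxylates such as malate for phosphate, had a density of 7.29 log2 CPM per kb. Slc25a1, which exports citrate for fatty acid and sterol synthesis, had 7.22. Slc25a11, the oxoglutarate carrier of the malate-aspartate shuttle, had 6.36. The fourth, Slc25a21, which carries oxodicarboxylates of lysine and tryptophan breakdown, had 4.07, below the other three.

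Among the carriers of fuel and coenzyme A, Slc25a20 (chromosome 9, 108564429 to 108586972, plus strand, 9 coding exons) was highest. It exchanges acylcarnitine for carnitine in fatty acid oxidation, and had 7.13 log2 CPM and a density of 7.37 log2 CPM per kb. Slc25a17, which sits in the peroxisomal membrane, had a density of 5.62. Slc25a42, a coenzyme A carrier, had 4.49. Slc25a47 (chromosome 12, 110089339 to 110095024, plus strand, 6 coding exons), a carrier known for its expression in liver, had a density of 7.46, at the 92.1th percentile. Of the carriers placed with it because their substrates are less certain, Slc25a45 had 4.02 and Slc25a48 2.96.

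The amino acid carriers differed widely. Slc25a22, a glutamate carrier, had a density of 6.90 log2 CPM per kb, Slc25a44, a carrier of branched-chain amino acids, had 4.35, and Slc25a38, which supplies glycine for heme synthesis, had 2.37. The iron and glutathione group was split in the same way. Slc25a39, needed for the import of glutathione, had 6.18, whereas the mitoferrins, which bring iron into the matrix, had 2.93 (Slc25a28) and 2.65 (Slc25a37). The mitoferrins' densities stood in a ratio of 1.21, and whether they differ beyond the spread between mice cannot be said.

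The carriers of pyrimidine nucleotides and cofactors, and those resembling uncoupling proteins, had the smallest sums of the carrier groups, 43.5 and 11.9 CPM. Slc25a32, a folate and flavin carrier, had a density of 4.61 log2 CPM per kb and Slc25a26, which brings in S-adenosylmethionine, 1.86. The pyrimidine nucleotide carriers Slc25a33 and Slc25a36 had 4.27 and 0.73, an 11.7-fold ratio, and Slc25a36 had the lowest level of all 44 genes at 0.54 log2 CPM. Slc25a30 and Slc25a14, relatives of the uncoupling proteins, had 3.64 and 0.97.

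**Figure D2:**
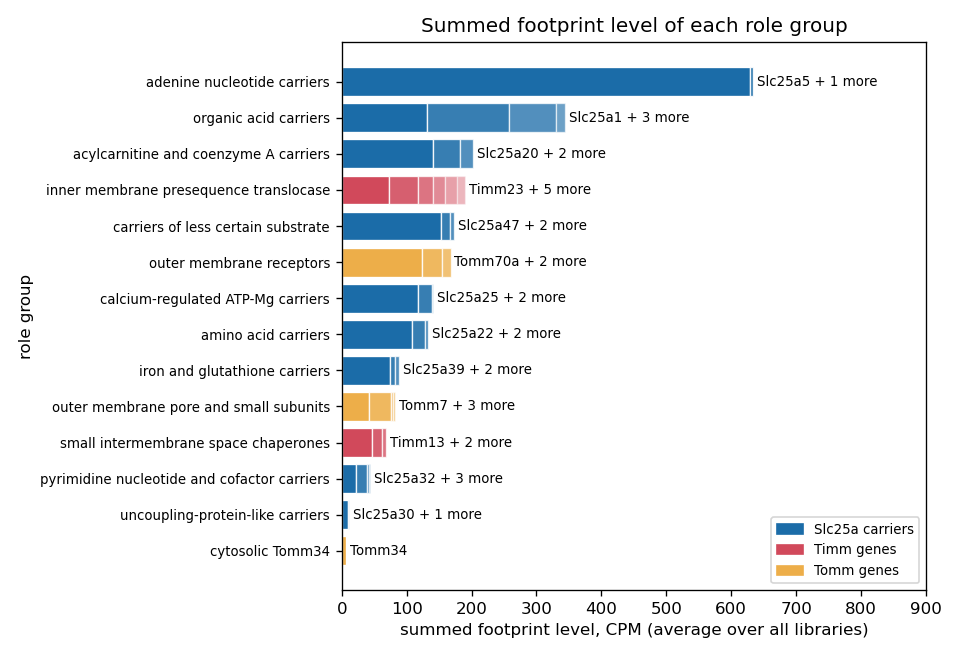
Summed average level of each role group in CPM on the horizontal axis, starting at 0, with 1 bar per group divided by gene from the most to the least abundant and the leading gene named beside it. The bar of the adenine nucleotide carriers is 633 CPM and nearly all Slc25a5, and the organic acid carriers follow with 344 CPM; no error is known for a bar.

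The import genes together took 514 CPM, 22.5% of the sum of the 44 genes, and 15 of 17 lay above the table's median density, against 11 of 17 above its median level. Their median counted length was 459 bases, against 1344 in the table, and Spearman's rho of density with length over all genes was -0.451. The receptors of the TOM complex, which bind precursor proteins at the mitochondrial surface, had densities of 6.35 log2 CPM per kb (Tomm20), 6.11 (Tomm70a) and 5.22 (Tomm22). Tomm70a, the receptor best known for binding carrier precursors (chromosome 16, 57121827 to 57156818, plus strand, 12 coding exons), had the highest level of the import genes, 6.94 log2 CPM, spread over the longest counted stretch, 1776 bases. Tomm40, the pore of the complex, had a density of 5.01 and its relative Tomm40l 1.41, a 12.1-fold ratio. Tomm34, a cytosolic co-chaperone that is not part of the membrane complex, had 3.04 and was, with Tomm40l, the import gene below the table's median.

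The small subunits that surround the pore had the shortest counted stretches of the 44 genes. Tomm7 (chromosome 5, 23344762 to 23349979, minus strand, 3 coding exons) had 5.40 log2 CPM, which over 108 bases is a density of 8.61 log2 CPM per kb, the highest after Slc25a5. Tomm5 had 4.30 CPM, against 42.2 CPM for Tomm7, over 126 bases. Its density was 5.09, and the ratio of the densities was 11.4. The counted stretch of Tomm7, in which 79 windows of 30 bases fit, is shown because its whole value rests on it, with the start set 48 bases from the A of the start codon:

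Tomm7, bases 49 to 156: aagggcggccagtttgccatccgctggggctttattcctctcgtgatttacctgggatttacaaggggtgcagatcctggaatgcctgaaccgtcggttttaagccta

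By level, Tomm7 stood at the 75.3th percentile of the table and by density at the 96.3th, while Tomm5 stood at the 19.8th and the 73.3th.

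All 6 genes of the presequence translocase of the inner membrane lay above the table's median density, and 5 of the 6, all but Timm21, above its median level. Timm23, its channel subunit (chromosome 14, 32993348 to 33015084, minus strand, 7 coding exons), had a density of 7.01 log2 CPM per kb. Timm17b and Timm17a, alternative partners of Timm23, had 5.34 and 5.29, a ratio of 1.04. Timm44, which tethers the import motor, had 5.06, Timm50, the receptor facing the intermembrane space, 4.60, and Timm21, which links to the outer complex, 4.19. Timm17a and Timm17b came within 2 mismatches of another gene in 0.937% and 0.930% of windows.

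The small Timm chaperones, which keep carrier precursors soluble between the membranes, had counted stretches of 210 to 234 bases. Timm13 (chromosome 10, 80362195 to 80363714, minus strand, 3 coding exons) had 5.53 log2 CPM and a density of 7.66 log2 CPM per kb, next after Slc25a5 and Tomm7. Timm8a1 (chromosome X, 131071795 to 131076404, minus strand, 2 coding exons), the partner with which Timm13 forms a complex, had a density of 6.10, and Timm9 had 4.70. Every window of Timm8a1 occurs unchanged in Gm9797, which GENCODE lists as coding and RefSeq as a pseudogene. Gm9797 has no line in the table. Only reads that aligned to 1 place were counted, and Timm8a1 had 16.1 CPM. Any footprints of Gm9797 would therefore be counted under Timm8a1, and their share was not tested.

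Each of these 3 genes holds a pair of cysteine motifs, a cysteine codon (TGT or TGC), 3 other codons and a cysteine codon, which form the disulfide bonds of the folded chaperone. They are shown with the cysteine codons in capitals:

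Timm8a1, bases 127 to 141: TGCtgggagaagTGC

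Timm8a1, bases 184 to 198: TGTtttgtgaacTGC

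Timm9, bases 82 to 96: TGCtttttggacTGT

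Timm9, bases 142 to 156: TGTtcagaacatTGC

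Timm13, bases 136 to 150: TGTttccggaagTGC

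Timm13, bases 193 to 207: TGCatcgccatgTGC

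At least 2 such motifs were found in 6.91% of the 7093 coding sequences searched, and in 0 of the other members searched, Timm21 not being among them.

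**Figure D3:**
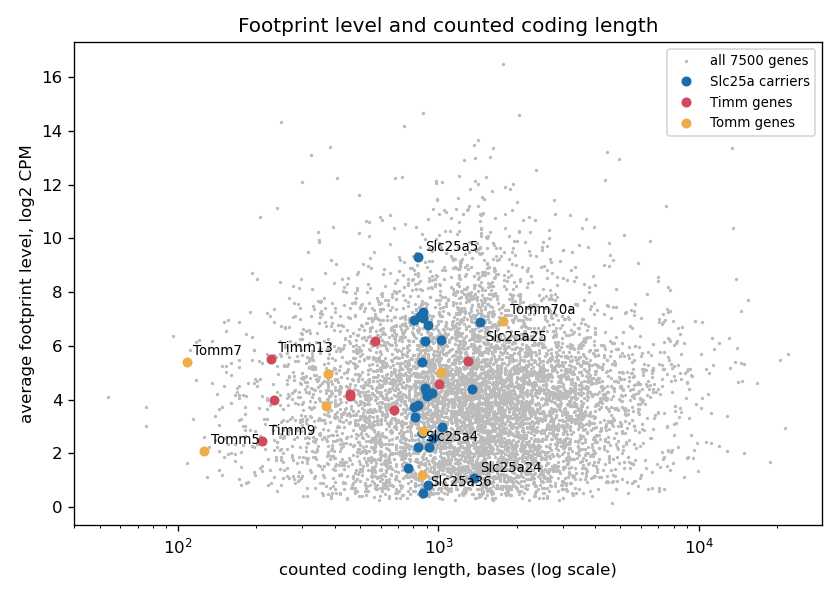
Average footprint level in log2 CPM on the vertical axis against counted coding length in bases on a logarithmic horizontal axis, with 1 grey point for each of the 7500 genes and coloured points for the 44 genes. The carriers sit in a narrow band of length, mostly 765 to 1035 bases, over levels from 0.54 to 9.30, while the small Tomm and Timm subunits lie at the short end.

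Across the 44 genes, Spearman's rho of density with counted length was -0.287, and across all 7500 genes -0.451, both given as a description over genes measured in the same libraries. For level the values were 0.113 and 0.00607. GC content of the counted stretch ran from 42.9% to 60.9%, with medians of 55.5% in the carriers and 52.9% in the import genes. The 43 genes with a GENCODE match lay on 19 chromosomes, and 4 of them, Slc25a5, Slc25a14, Timm8a1 and Timm17b, on chromosome X. In 32 of the 43, no window came within 2 mismatches of another gene, and besides Timm8a1 the highest share was the 3.34% of Slc25a5 and Slc25a4.

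Other genes of the same pathways, from lists not based on the symbol, were set beside them. Of 20 further import and folding genes, 10 had a line under the symbol listed, and all 10 were above the table's median density, with a median of 6.14 log2 CPM per kb. By level, without the correction for length, Romo1 and Dnajc19 lay below the table's median, at the 46.2th and 37.6th percentiles, and the others above it. The matrix chaperonins Hspd1 and Hspe1 led with 8.92 and 8.75. The import motor's exchange factor Grpel1 followed with 7.71, and the subunits of the presequence-cleaving peptidase, Pmpcb and Pmpca, had 7.21 and 6.07. Of 12 further mitochondrial transporters, 6 had a line under the symbol listed and 5 of these were above the table's median. Mcu, the calcium uniporter, was listed under its older symbol Ccdc109a, with a density of 3.98. The outer membrane channels Vdac1 and Vdac3 had 8.42 and 7.31, and Ucp2, an uncoupling protein of the carrier family listed under another name, had 2.73.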

How the data were processed

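Ribosome footprints of 8 liver libraries were examined. As the paper's methods describe, the authors clipped adapters, discarded rRNA reads and counted reads that aligned uniquely by Bowtie with up to 2 mismatches to the longest RefSeq isoform (mm9), leaving out the first 15 and last 3 codons. A gene had to exceed 1 CPM in 3 or more samples. The deposited log2 CPM was read as the authors' average over all libraries from edgeR. The submitters' processing notes name Bowtie, edgeR and mm9 without versions. The remaining columns hold the authors' fold change between the diets, its log2, its p-value and its false discovery rate. They were not used, and the planned test on counts was not run because it needs counts per library, which the table does not give. The depth of each library is unknown, no interval is given, and no claim of a difference is made.

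Density was computed as log2 CPM minus log2 of the deposited length in kilobases. The reference was NCBIM37, the assembly named mm9, with GENCODE vM1. Of the 44 genes, 43 matched a coding sequence of that length plus 60 bases. Timm21 was not matched by symbol. The left-out bases were set as 48 at the start and 12 at the end, which is an assumption. Windows of 30 bases were compared with the longest coding sequence of every other gene on both strands, by a search tested on simulated sequences. Groups by role were assigned by hand. In groups of up to 4 all genes are named, as are the paralog pairs listed, the 10 genes of highest and the 5 of lowest density, and in larger groups the highest 2 and the lowest 1. Timm44 and Timm50 fall outside this rule and were added to complete their group. Members and lists were chosen with earlier results of these data known. Python 3.11.15, pandas 2.3.3, numba 0.67.0 and matplotlib 3.10.9 were used.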

Additional observations from a re-analysis of the deposited data

How the results depend on the processing

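With no replicate values, settings could be compared only by how far they moved a value. No paired analysis was possible because the deposited averages hold no value per mouse, and for the same reason the alternatives that need counts, among them leaving out each mouse, were not run. The whole coding length and the uniquely alignable length were chosen after seeing the data. Median densities of all 44 genes, Slc25a, Timm and Tomm genes and the whole table were 5.62, 5.90, 5.31, 6.11 and 4.51 log2 CPM per kb among genes of at least 3 log2 CPM, 4.82, 4.49, 5.55, 5.11 and 3.73 as means, and 4.53, 4.18, 5.11, 4.96 and 3.42 over the whole coding sequence. The filter leaves out 13 of the 44 genes and puts the Slc25a median above that of the Timm genes. Over uniquely alignable bases, without Timm8a1 and Timm21, the Timm median was 5.30, and those of all 44 genes, the Slc25a genes and the Tomm genes kept their values to 2 decimals. It was not computed for the whole table. The median percentile of the 44 genes was 56.0 by level, 70.6 by density and 55.4 by level among genes of at least 3 log2 CPM. In the order by density, 1 gene moved by more than 2 places over the whole coding sequence, by 3 places, and 0 did over uniquely alignable bases. The latter order lists Timm8a1 and Timm21, which have no value for that length, at their unchanged places. Unknown depth and the absent spread between mice limit every comparison of levels.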
